A study of Homo sapiens with 12 samples.

Results

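Cytoplasmic dynein 1 is the motor that carries cargo along microtubules toward the centre of the cell, and these results describe the transcripts of its subunits and of its regulator LIS1 in lung cancer cells. The heavy chain is the motor itself. Intermediate chains join it to dynactin, its cofactor, light intermediate chains bind the adaptors that hold cargo, and light chains dock on the intermediate chains. Autophagosomes and endosomes are among its cargoes, and LIS1 helps the motor to start. Other genes listed as parts of dynein 1, DYNC1I1, DYNLT2 and DYNLT4, also had rows in both deposited tables but were not members. The members were 10 chosen genes with a row in both, of the 16426 genes complete in both. They are DYNC1H1 (heavy chain), DYNC1I2 (intermediate chain), DYNC1LI1 and DYNC1LI2 (light intermediate chains), DYNLL1, DYNLL2, DYNLRB1, DYNLT1 and DYNLT3 (light chains) and PAFAH1B1, which encodes LIS1.

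The study sequenced RNA from the non-small cell lung cancer lines HCC827 and NCI-H1975, both established lines with a mutated EGFR gene, in 12 libraries. In the siRNA experiment each line received siDYN-1 or siDYN-2, with 48 h given for both, or the control siRNA siCON. In the 18E experiment the lines were given DMSO or the small molecule 18E, known here only by its code, at 2.5 µM or 5 µM, with 24 h given for the 18E samples. The title of the series names LIC1, the product of DYNC1LI1, as the target of the molecule. The labels do not spell out siDYN. Its target is taken here to be DYNC1LI1 from that title and from the level of DYNC1LI1 in these libraries, so that level is no independent check of the labels. Each line and treatment had 1 library, so no value below has an SD and the 2 lines serve as replicates. In the joint siDYN fit the 2 siRNAs also serve as repeats. The p-values set a fitted change against the spread among these libraries only, partly pooled over genes.

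Values are FPKM (fragments per kilobase of a transcript, scaled by the size of the library), so levels of different genes are per length. The 2 experiments were normalised separately and no level is compared between them. Depth is unknown. Total FPKM was 633846 to 685680 in siDYN libraries and 605451 and 613996 in siCON libraries, and it was 486409 to 575290 in the 18E experiment, higher in each treated library than in the control of its line. The 6 epithelial markers were all found, at 7.14 FPKM or more, while no blood, endothelial or stromal marker passed 1.47 FPKM. All 10 members passed the filter on low values (at least 1 FPKM in at least 2 of 6 libraries of an experiment), and the lowest value of any member in any library was 1.22 FPKM.

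DYNC1LI1 lies on chromosome 3 from 32525971 to 32570874 on the minus strand, with 13 exons in its longest coding transcript. DYNC1LI2 lies on chromosome 16 from 66720893 to 66751798 on the minus strand, also with 13 exons, and DYNC1H1 on chromosome 14 from 101964510 to 102056443 on the plus strand, with 78 exons. These are the 3 genes whose transcripts were lower in every siDYN library, and the stretches just upstream of their first exons are shown so that the start of each can be compared. Each is read 5′ to 3′ on the strand of the gene, from RefSeq promoters in build GRCh38.p14, and ends before the most upstream annotated transcript start. The RefSeq windows run on past that start, and their last 16 bases for DYNC1LI1, 189 for DYNC1LI2 and 63 for DYNC1H1 are not printed. Capitals mark a GC box, searched as GGGCGG on both strands and present here in its reverse complement.
DYNC1LI1, chr3:32570875-32571108, minus strand: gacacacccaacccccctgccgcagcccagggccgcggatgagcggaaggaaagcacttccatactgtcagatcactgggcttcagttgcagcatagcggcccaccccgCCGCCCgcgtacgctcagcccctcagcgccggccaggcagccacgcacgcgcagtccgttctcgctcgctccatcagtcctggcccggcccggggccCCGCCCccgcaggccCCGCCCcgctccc
DYNC1LI2, chr16:66751799-66751859, minus strand: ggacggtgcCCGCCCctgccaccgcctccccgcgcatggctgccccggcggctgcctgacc
DYNC1H1, chr14:101964323-101964509, plus strand: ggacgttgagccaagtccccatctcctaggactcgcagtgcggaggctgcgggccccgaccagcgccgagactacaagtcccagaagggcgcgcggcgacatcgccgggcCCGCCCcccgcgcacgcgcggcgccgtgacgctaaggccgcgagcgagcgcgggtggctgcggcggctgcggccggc

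The DYNC1LI1 stretch holds 3 GC boxes in 234 bases, the DYNC1LI2 stretch 1 in 61 bases and the DYNC1H1 stretch 1 in 187 bases. The full windows of 250 bases hold 3, 5 and 4 in the same order of genes. The G and C content of the printed stretches is 73.1%, 82.0% and 76.5%, in that order. Promoters were found for 9 of the 10 members, all but DYNLL2, and gave 12 windows of 250 bases upstream of a RefSeq start. A GC box was in 10 of the 12 windows, against 42.64% of 35116 human promoter windows of the same length. The CCAAT box, searched as CCAAT, was in 2 of the 12 and in 32.01% of all. The cAMP response element half-site, searched as TGACG, was in 4 of the 12 and in 21.22% of all. A heat shock element pair, searched as GAANNTTC, was in 2 of the 12 and in 5.78% of all. An amino acid response element core, searched as TGATGNAA, was in 0 of the 12 and in 3.14% of all. All were searched on both strands, each motif on its own, so matches of different motifs could overlap. These are matches of letters, not sites shown to be bound.

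Because the paralogs encode similar proteins, the transcripts were also compared for shared sequence. The longest identical run between the longest coding transcripts was 17 bases for DYNC1LI1 and DYNC1LI2, 17 for DYNLL1 and DYNLL2 and 11 for DYNLT1 and DYNLT3. DYNC1LI1 and DYNC1H1 shared at most 13. Of the 50-base windows of DYNC1I2, 32.64% were also found in the pseudogene DYNC1I2P1, so its FPKM are uncertain, while for the other 9 genes at most 1.71% of windows occurred in another annotated gene.

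The members spanned a wide range of levels. DYNLL1, an LC8 light chain that also binds many proteins outside dynein, was the highest member in all 12 libraries, at 240.53 to 426.67 FPKM in the 18E experiment and 404.2 to 771.91 FPKM in the siRNA experiment. DYNLT1, a Tctex light chain, and DYNLRB1, a roadblock light chain, took the next places in every library. Below them, 6 members stood between 23.73 and 27.06 FPKM in the NCI-H1975 siCON library, too close to be put in order without replicate libraries. DYNLT3, the second Tctex light chain, differed most between the lines, at 3.4 to 3.95 FPKM in HCC827 and 19.79 to 24.31 FPKM in NCI-H1975 in the 18E experiment. In the siRNA experiment it stood at 4.8 to 7.86 FPKM in HCC827 and 22.71 to 25.86 FPKM in NCI-H1975. The lines do not overlap in either experiment.

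**Figure D1:**
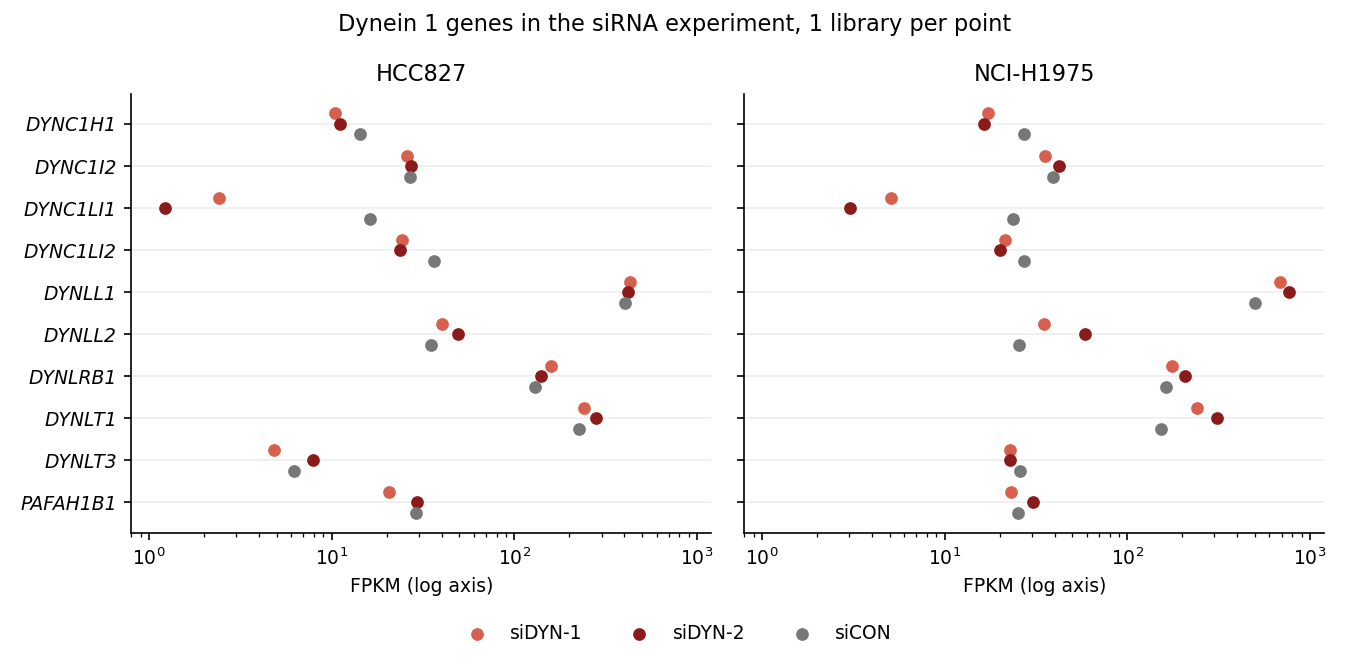
FPKM of the 10 members (log axis) in siDYN-1, siDYN-2 and siCON libraries, with a panel for each line and a point for each library. DYNC1LI1 is far to the left of its siCON point under both siRNAs, DYNC1H1 and DYNC1LI2 are to the left of theirs, and DYNLL1, DYNLL2, DYNLRB1 and DYNLT1 are to the right of theirs.

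The siRNA experiment set siDYN against siCON in each line. DYNC1LI1, which encodes the chain that binds adaptors such as BICD2 and HOOK3, was lower in all 4 siDYN libraries than in siCON. In HCC827 it stood at 2.42 FPKM with siDYN-1 and 1.22 FPKM with siDYN-2, against 16.28 FPKM with siCON. Its NCI-H1975 values were 5.1 FPKM with siDYN-1 and 3.04 FPKM with siDYN-2, against 23.73 FPKM with siCON. The remaining level was 14.9% and 7.49% of siCON in HCC827 and 21.5% and 12.8% in NCI-H1975, so siDYN-2 left less in both lines and HCC827 kept less under both siRNAs.

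Over both siRNAs the fitted change of DYNC1LI1 was -2.48 ± 0.25 (log2 of FPKM + 1, SE; limma, 2 lines), the lowest of 11718 genes, with an unadjusted p of 2.79e-05 and an adjusted p of 0.0784. No gene passed an adjusted p of 0.05 in that fit (0 of 11718, 0%), which treats the 2 siRNAs as repeats, although 3042 had an unadjusted p under 0.05 by limma. With 1 library left out, the change of DYNC1LI1 ran from -2.65 to -2.32. It passed only without the HCC827 siDYN-1 library (-2.59, limma adjusted p = 0.0101). Fitted with a term of its own, each siRNA gave a fall that passed. The change was -2.18 ± 0.16 for siDYN-1 (limma adjusted p = 0.0406), where 82 genes or 0.7% of those tested were called. It was -2.79 ± 0.16 for siDYN-2 (limma adjusted p = 0.00574), where 2124 genes or 18.1% were called. These fits share the siCON libraries. In both, DYNC1LI1 had the smallest unadjusted limma p of all genes.

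The change of DYNC1LI1 nearest to 0 in any siDYN library was -2.02 on the log2 scale (NCI-H1975, siDYN-1), and no other tested gene was that low in all 4 libraries. The next was ASPH, which encodes an aspartate hydroxylase, whose change nearest to 0 was -1.19. Within single libraries other genes were lower still. In HCC827, 1 gene with siDYN-1 and 2 with siDYN-2 had a more negative change than DYNC1LI1, and in NCI-H1975 these were 3 and 4.

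DYNC1LI2 encodes the other light intermediate chain, which takes the same place in the complex. It stood at 24.35 FPKM with siDYN-1 and 23.61 FPKM with siDYN-2 in HCC827, against 36.21 FPKM with siCON. NCI-H1975 cells had 21.44 FPKM and 20.05 FPKM, against 27.06 FPKM with siCON. The siDYN values were below siCON in each line, with a fitted change of -0.47 ± 0.13 (limma unadjusted p = 0.00934, adjusted p = 0.109). Of the 10 members, 3 passed with siDYN-2 alone, against 18.1% of all genes, and 1 with siDYN-1 alone, against 0.7%. The change of DYNC1LI2 passed with siDYN-2 alone (-0.51 ± 0.13, limma adjusted p = 0.0469). It did not with siDYN-1 alone (-0.44 ± 0.13, limma adjusted p = 0.111). The paralog was thus not higher where DYNC1LI1 was lower.

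As both light intermediate chain transcripts were lower, so was their sum. It was 26.77 FPKM with siDYN-1 and 24.83 FPKM with siDYN-2 in HCC827, against 52.49 FPKM with siCON. In NCI-H1975 the sum was 26.54 FPKM and 23.09 FPKM, against 50.79 FPKM with siCON. The share of DYNC1LI1 in that sum was 9.04% and 4.91% in HCC827, against 31.0% with siCON, and 19.2% and 13.2% in NCI-H1975, against 46.7% with siCON. DYNC1LI2 therefore made up more than 80% of the sum in each siDYN library.

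**Figure D2:**
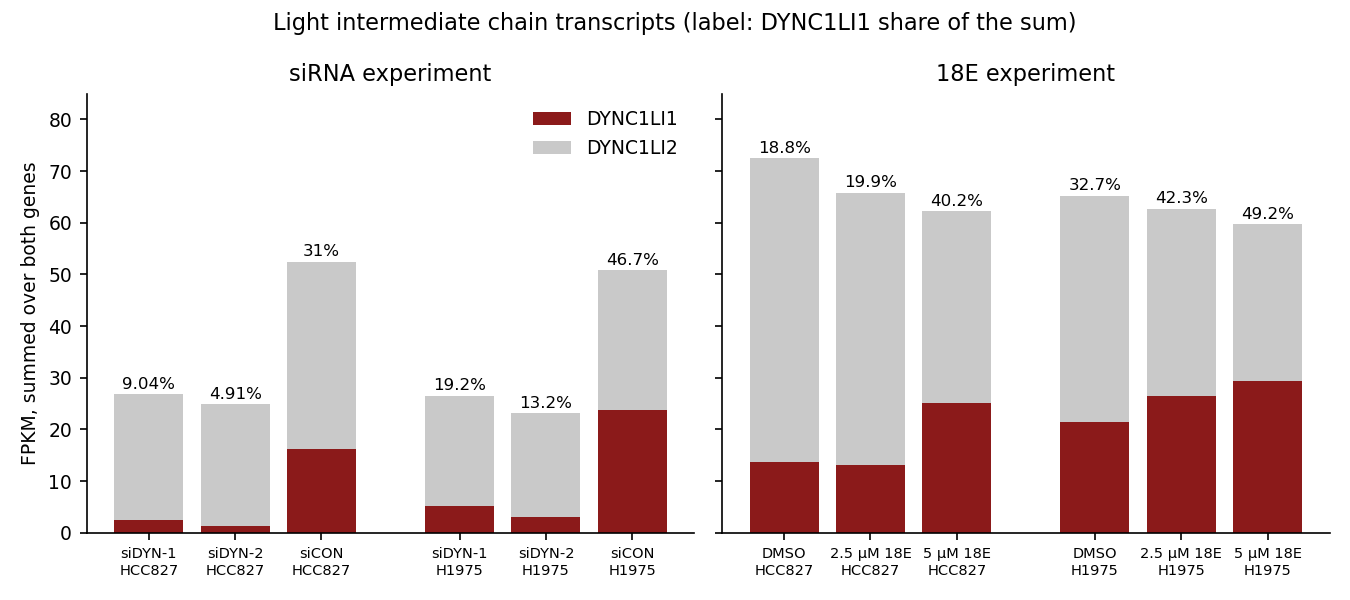
FPKM of DYNC1LI1 (dark) stacked with DYNC1LI2 (light) in each library, with the siRNA experiment on the left and the 18E experiment on the right, and the DYNC1LI1 share of the sum above each bar. The share is 4.91% to 19.2% in siDYN libraries and 31.0% and 46.7% in siCON libraries, while in the 18E experiment it is highest at 5 µM in each line. The 2 experiments were normalised separately.

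The heavy chain transcript DYNC1H1 was also lower with siDYN. In HCC827 it stood at 10.39 FPKM with siDYN-1 and 11.1 FPKM with siDYN-2, against 14.33 FPKM with siCON. The NCI-H1975 libraries gave 17.23 FPKM and 16.49 FPKM, against 27.03 FPKM with siCON. All 4 siDYN values were below siCON of their line, and the fitted change was -0.52 ± 0.14 (limma unadjusted p = 0.00778, adjusted p = 0.107). The siRNAs gave nearly the same value, -0.52 ± 0.14 with siDYN-1 and -0.51 ± 0.14 with siDYN-2 (limma adjusted p = 0.0971 and 0.0551).

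The intermediate chain transcript DYNC1I2 and LIS1 moved in no common direction. DYNC1I2 stood at 25.77 FPKM and 27.23 FPKM with siDYN-1 and siDYN-2 in HCC827, against 26.83 FPKM with siCON, and at 35.52 FPKM and 42.15 FPKM in NCI-H1975, against 39.36 FPKM with siCON. Its fitted change of -0.02 had a 95% interval of -0.34 to 0.30. PAFAH1B1 stood at 20.46 FPKM and 29.35 FPKM in HCC827, against 28.99 FPKM with siCON, and at 22.96 FPKM and 30.26 FPKM in NCI-H1975, against 25.16 FPKM with siCON. In both lines the siDYN-1 library was the lowest of the 3, and the interval of the fitted change was -0.56 to 0.39.

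Among the light chains, 4 of 5 were higher in all 4 siDYN libraries, against 24.9% of all genes. Total FPKM was also higher in each siDYN library than in siCON of its line, and this count was not repeated at equal totals. DYNLL2, the second LC8 chain, stood at 39.96 FPKM with siDYN-1 and 49.43 FPKM with siDYN-2 in HCC827, against 34.8 FPKM with siCON. For NCI-H1975 the values were 34.84 FPKM and 58.52 FPKM, against 25.52 FPKM with siCON. The siDYN-2 library was the highest in each line, and the fitted change was 0.57 ± 0.24 (limma unadjusted p = 0.0483, adjusted p = 0.19). With siDYN-2 alone it passed, as 18.1% of all genes did (0.83 ± 0.18, limma adjusted p = 0.0326). With siDYN-1 alone, where 0.7% of all genes passed, it did not (0.31 ± 0.18, limma adjusted p = 0.306). The change was 0.34 without the NCI-H1975 siCON library and 0.80 without the HCC827 siCON library.

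DYNLT1 stood at 239.45 FPKM with siDYN-1 and 279.41 FPKM with siDYN-2 in HCC827, against 225.48 FPKM with siCON. In NCI-H1975 it stood at 239.56 FPKM and 311.54 FPKM, against 153.75 FPKM with siCON. The gap from siCON was wider in NCI-H1975, and the fitted change was 0.51 ± 0.19 (limma unadjusted p = 0.0342, adjusted p = 0.164), 0.66 ± 0.18 with siDYN-2 alone (limma adjusted p = 0.0538). Quantile normalisation took it to 0.28 (limma adjusted p = 0.348). Without the NCI-H1975 siCON library it was 0.20, and without that of HCC827 it was 0.83.

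DYNLL1 stood at 427.93 FPKM and 421.26 FPKM in the siDYN libraries of HCC827, against 404.2 FPKM with siCON, and at 683.63 FPKM and 771.91 FPKM in those of NCI-H1975, against 501.97 FPKM with siCON. DYNLRB1 stood at 159.08 FPKM and 139.47 FPKM in HCC827, against 130.45 FPKM with siCON, and at 175.97 FPKM and 206.1 FPKM in NCI-H1975, against 163.76 FPKM with siCON. Their fitted changes of 0.30 ± 0.15 and 0.20 ± 0.13 did not pass (limma adjusted p = 0.237 and 0.357). After quantile normalisation they were 0.078 and 0.012 (limma adjusted p = 0.739 and 0.959). At equal FPKM totals they were 0.19 and 0.088 (limma adjusted p = 0.403 and 0.68). For DYNLL1 the change was 0.071 without the NCI-H1975 siCON library and 0.53 without the HCC827 siCON library. DYNLT3 was the exception among the light chains, lower in 3 libraries and higher in 1, with a fitted change of -0.09 ± 0.20.

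Counted over the members, 3 of 10 were lower (DYNC1LI1, DYNC1LI2 and DYNC1H1) and 2 higher (DYNLL2 and DYNLT1) at an unadjusted p under 0.05, where 13.4% of all genes were lower and 12.6% higher. By direction alone, 3 of 10 were lower in all 4 siDYN libraries and 4 of 10 higher, against 25.6% and 24.9% of all genes. Without DYNC1LI1, 2 of 9 were lower and 2 of 9 higher at that unadjusted p. The median change of the 10 was -0.05 and that of all genes 0.01. When the FPKM of every library were scaled to an equal total, the changes were -2.59 for DYNC1LI1, -0.63 for DYNC1H1, -0.58 for DYNC1LI2, 0.46 for DYNLL2 and 0.40 for DYNLT1. Each kept its direction. In bulk RNA, fewer cells of a type and less RNA per cell cannot be told apart.

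The 2 siRNAs were compared directly. DYNC1LI1 was lower with siDYN-2 than with siDYN-1 by a fitted -0.61 ± 0.16 (limma unadjusted p = 0.0074, adjusted p = 0.111). DYNLL2 was higher by 0.52 ± 0.18 and PAFAH1B1 by 0.44 ± 0.14 (limma unadjusted p = 0.0277 and 0.0197, adjusted p = 0.186 and 0.16). These 3 of 10 members compare with 20.9% of all genes at that level, and none of the 10 was among the 71 genes (0.606%) that passed the adjusted threshold. The DYNLL2 difference was 0.24 without the NCI-H1975 siDYN-2 library (limma adjusted p = 0.474) and 0.79 without that of HCC827. For DYNC1LI1 the difference ran from -0.70 to -0.52 with 1 library left out. DYNC1H1 and DYNC1LI2 differed between the siRNAs by 0.01 ± 0.14 and -0.07 ± 0.13.

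No member had an unadjusted p under 0.05 for a difference between the lines in its response to siDYN. Of all genes 1.52% did (178 of 11718, limma), and no gene passed after adjustment (0 of 11718, 0%). DYNLT1 came nearest, with a difference of -0.63 ± 0.35 (HCC827 minus NCI-H1975, limma unadjusted p = 0.13, adjusted p = 1.00). DYNLL1 followed with -0.46 ± 0.28 (limma unadjusted p = 0.156, adjusted p = 1.00). In that fit the siRNAs stand in for replicates, so differences between them add to the spread. The lack of calls does not show that the lines responded alike.

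**Figure D3:**
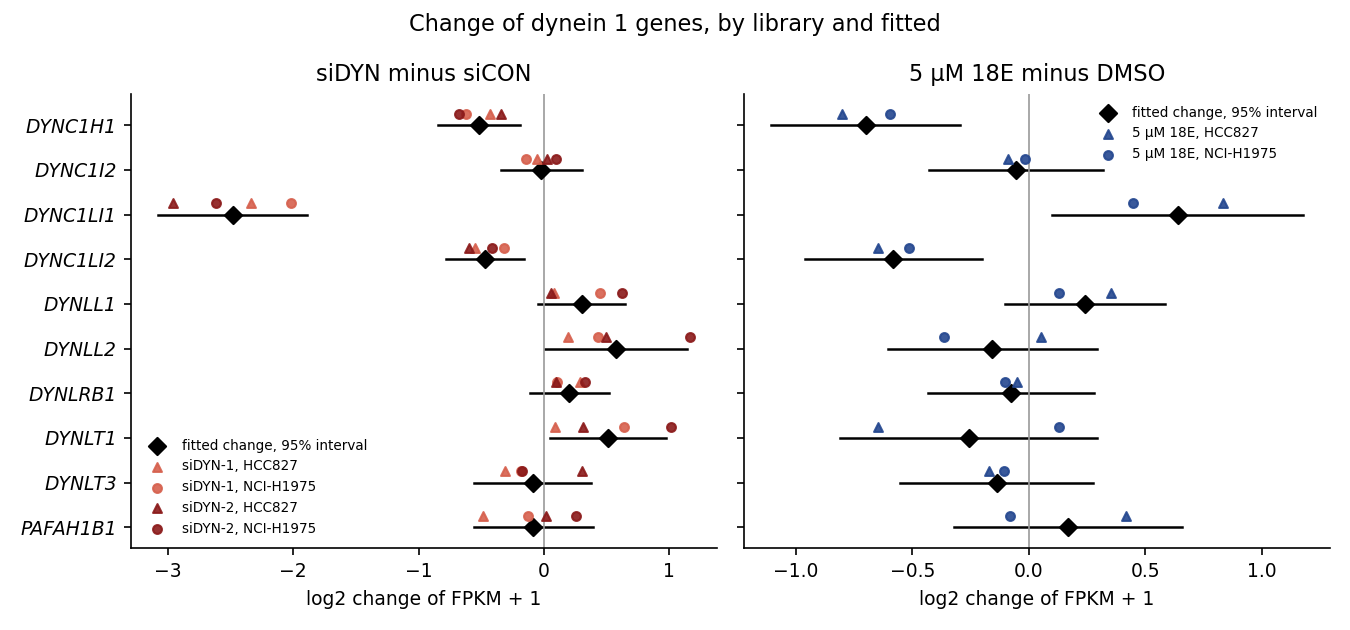
Change of each member on the log2(FPKM + 1) scale, siDYN minus siCON on the left and 5 µM 18E minus DMSO on the right. Small symbols are single libraries against the control of their line, and diamonds with lines are the fitted change with its 95% interval. DYNC1LI1 is at -2.48 on the left and at 0.64 on the right, while DYNC1H1 and DYNC1LI2 are below 0 in both panels.

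The 18E experiment set 2 doses of the small molecule against DMSO. DYNC1LI1 was higher at 5 µM than in DMSO in both lines, while DYNC1H1 and DYNC1LI2 were lower in both. DYNC1LI1 stood at 13.62 FPKM in DMSO, 13.08 FPKM at 2.5 µM and 25.03 FPKM at 5 µM in HCC827. Its NCI-H1975 values were 21.35 FPKM, 26.54 FPKM and 29.43 FPKM at the same doses. HCC827 showed the increase at 5 µM only, and NCI-H1975 at both doses. The fitted change at 5 µM was 0.64 ± 0.22 (limma unadjusted p = 0.0275, adjusted p = 0.15). It was 0.36 without the HCC827 5 µM library and 0.92 without the NCI-H1975 5 µM library.

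DYNC1LI2 stood at 58.89 FPKM in DMSO, 52.74 FPKM at 2.5 µM and 37.2 FPKM at 5 µM in HCC827. NCI-H1975 cells had 43.89 FPKM, 36.19 FPKM and 30.38 FPKM. The values went down with dose in both lines, with a fitted change of -0.58 ± 0.15 at 5 µM (limma unadjusted p = 0.00984, adjusted p = 0.113). Light intermediate chain transcripts together came to 72.51 FPKM, 65.82 FPKM and 62.23 FPKM in HCC827 at DMSO, 2.5 µM and 5 µM. They came to 65.24 FPKM, 62.73 FPKM and 59.81 FPKM in NCI-H1975. The make-up moved more than the sum, since DYNC1LI1 was 18.8% of it in DMSO, 19.9% at 2.5 µM and 40.2% at 5 µM in HCC827, and 32.7%, 42.3% and 49.2% in NCI-H1975.

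DYNC1H1 stood at 19.61 FPKM in DMSO, 18.72 FPKM at 2.5 µM and 10.81 FPKM at 5 µM in HCC827. The NCI-H1975 libraries gave 34.9 FPKM, 30.99 FPKM and 22.73 FPKM. The heavy chain transcript was lowest at 5 µM in each line, with a fitted change of -0.70 ± 0.16 (limma unadjusted p = 0.00596, adjusted p = 0.105). Without the NCI-H1975 5 µM library, the changes were -0.83 for DYNC1H1, -0.68 for DYNC1LI2 and -0.62 for DYNLT1. That library's absence leaves HCC827 alone at 5 µM, assumed to vary like the other groups.

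**Figure D4:**
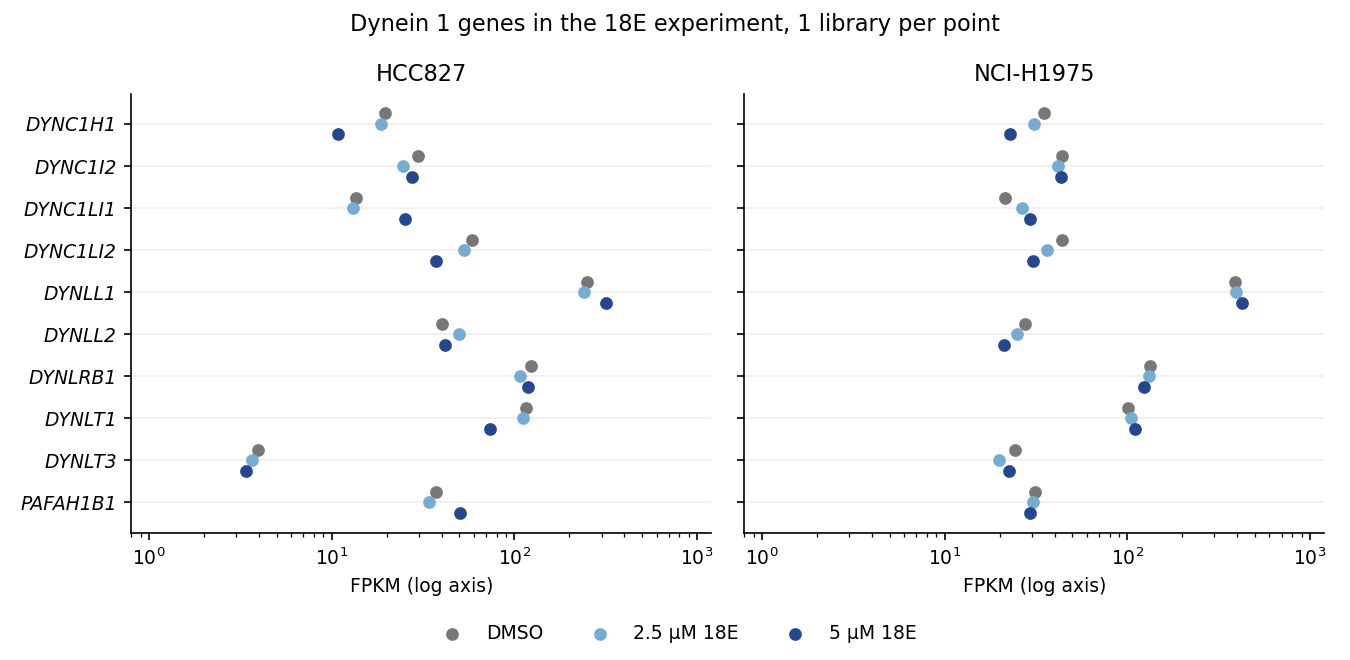
FPKM of the 10 members (log axis) in DMSO, 2.5 µM and 5 µM 18E libraries, with a panel for each line and a point for each library. DYNC1LI1 is highest at 5 µM in both lines, DYNC1H1 and DYNC1LI2 are lowest there, and DYNLT1 is lower at 5 µM in HCC827 only.

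The other members moved little or differently in the lines. DYNLT1 stood at 115.93 FPKM in DMSO, 111.42 FPKM at 2.5 µM and 73.72 FPKM at 5 µM in HCC827, and at 100.82 FPKM, 104.9 FPKM and 110.49 FPKM in NCI-H1975. Its values were lowest at 5 µM in HCC827 and highest there in NCI-H1975, and the fitted change at 5 µM was -0.26 ± 0.22. PAFAH1B1 also split, at 37.36 FPKM, 34.25 FPKM and 50.2 FPKM over the doses in HCC827, and at 31.08 FPKM, 30.4 FPKM and 29.36 FPKM in NCI-H1975, with a fitted change of 0.17 ± 0.20. Within the 18E experiment LIS1 was thus highest in the HCC827 5 µM library, where DYNC1H1 was lowest.

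DYNLL1 was highest at 5 µM in both lines, at 249.75 FPKM in DMSO, 240.53 FPKM at 2.5 µM and 319.19 FPKM at 5 µM in HCC827, and at 390.23 FPKM, 391.69 FPKM and 426.67 FPKM in NCI-H1975. Its fitted change at 5 µM, 0.24 ± 0.14, did not pass (limma adjusted p = 0.302). DYNLL2 stood at 40.05 FPKM, 49.85 FPKM and 41.51 FPKM over the doses in HCC827, and at 27.56 FPKM, 24.81 FPKM and 21.17 FPKM in NCI-H1975. It was at or above DMSO in HCC827 and below it in NCI-H1975. For DYNC1I2, DYNLRB1, DYNLL2 and DYNLT3 the fitted changes at 5 µM lay between -0.16 and -0.06, inside their errors.

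At 5 µM none of the 10 members passed an adjusted p of 0.05. The gene ADM alone did (1 of 11953, 0.00837%), and 3205 genes had an unadjusted p under 0.05. At that level 2 of 10 members were lower (DYNC1H1 and DYNC1LI2) and 1 higher (DYNC1LI1), where 16.8% of all genes were lower and 10.0% higher. By direction, 5 of 10 were lower in both lines and 2 higher, against 40.8% and 25.5% of all genes, shares near to those of the members. The median change was -0.11 over the members and -0.09 over all genes. Scaled to equal totals, the changes were -0.81 for DYNC1H1, -0.69 for DYNC1LI2 and 0.53 for DYNC1LI1.

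At 2.5 µM the fitted changes of the members ran from -0.21 ± 0.15 (DYNC1LI2) to 0.12 ± 0.22 (DYNC1LI1), with DYNC1H1 at -0.12 ± 0.16. None had an unadjusted p under 0.05, where 5.26% of genes (629 of 11953, limma) did, and no gene passed after adjustment (0%). Lower values in both lines were seen in 6 of 10 members, against 31.6% of all genes. The median change of the members was -0.09 and that of all genes 0.00. The dose step itself, 5 µM minus 2.5 µM, gave -0.59 ± 0.16 for DYNC1H1, 0.52 ± 0.22 for DYNC1LI1 and -0.37 ± 0.15 for DYNC1LI2 (limma unadjusted p = 0.0129, 0.0573 and 0.0548, adjusted p = 0.411 for each). DYNC1H1 was the 1 member of 10 under 0.05, against 11.8% of genes (1405 of 11953, limma), and no gene passed after adjustment (0%). Without the NCI-H1975 5 µM library, which leaves HCC827 alone at 5 µM, the dose step was -0.71 for DYNC1H1 and 0.80 for DYNC1LI1. It was -0.62 for DYNLT1 and 0.52 for PAFAH1B1. The dose step of DYNC1LI1 was 0.23 without the HCC827 5 µM library (limma adjusted p = 0.726), 0.24 without the HCC827 2.5 µM library and 0.79 without that of NCI-H1975. That of DYNC1H1 ran from -0.71 to -0.46 with 1 library left out, that of DYNLT1 from -0.62 to 0.10 and that of PAFAH1B1 from -0.026 to 0.52.

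No member had an unadjusted p under 0.05 for a difference between the lines in its 18E response. Of all genes 1.72% did (205 of 11953, limma), and no gene passed after adjustment (0%). In that fit the doses stand in for replicates.

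Set side by side, the changes of the light intermediate chains and the heavy chain were -2.48 and 0.64 for DYNC1LI1 with siDYN and with 5 µM 18E, -0.47 and -0.58 for DYNC1LI2, and -0.52 and -0.70 for DYNC1H1. DYNLL2 was at 0.57 and -0.16 and DYNLT1 at 0.51 and -0.26. These are changes within each experiment, whose libraries and times differ, and the difference between them was not tested.

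The genes whose pattern was most like that of DYNC1LI1 were sought over the 8 changes of a treated library from the control of its line, in 11449 genes tested in both experiments. They were HSD17B11 (Pearson r = 0.988), NUP35 (0.987), CDC23 (0.986), TMEM120A (0.981) and HNRNPK (0.970). HSD17B11 encodes a steroid dehydrogenase, NUP35 a nuclear pore protein, CDC23 a subunit of the anaphase-promoting complex and HNRNPK an RNA-binding protein. Their changes were much smaller than those of DYNC1LI1, from -0.23 to -0.41 for HSD17B11 and from -0.51 to -0.75 for CDC23 over the siDYN libraries. Among the other 9 members, r was -0.80 for DYNLRB1, -0.74 for DYNLL2, -0.72 for DYNLT1, -0.47 for DYNC1I2, -0.33 for DYNLT3 and -0.31 for DYNLL1. It was 0.06 for DYNC1H1, 0.15 for DYNC1LI2 and 0.27 for PAFAH1B1. These values describe 8 changes that share control libraries. The changes of DYNC1LI1 ran from -2.96 to -2.02 with siDYN and from -0.05 to 0.83 with 18E. Each r therefore mostly follows the gap between the experiments.

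Partners of dynein 1 outside the members were taken from lists. Of 7 further dynein 1 parts and LIS1 partners, 2 were tested, the paralogs NDE1 and NDEL1, which bind LIS1 and dynein. NDE1 stood at 13.77 FPKM and 12.6 FPKM with siDYN-1 and siDYN-2 in HCC827, against 19.68 FPKM with siCON. For NCI-H1975 the values were 7.56 FPKM and 5.44 FPKM, against 9.32 FPKM with siCON. NDE1 was lower in all 4 libraries, with a fitted change of -0.51 ± 0.16 (limma unadjusted p = 0.018, adjusted p = 0.128). With siDYN-2 alone it passed, as 18.1% of all genes did (-0.64, limma adjusted p = 0.0339).

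At 5 µM 18E, NDE1 was lower in both lines as well, at 27.31 FPKM in DMSO, 19.46 FPKM at 2.5 µM and 15.56 FPKM at 5 µM in HCC827, and at 11.23 FPKM, 8.11 FPKM and 7.93 FPKM in NCI-H1975. The fitted change was -0.61 ± 0.17 (limma unadjusted p = 0.0125, adjusted p = 0.12). NDEL1 went the other way, at 21.39 FPKM, 24.43 FPKM and 74.67 FPKM over the doses in HCC827, and at 15.13 FPKM, 15.0 FPKM and 17.24 FPKM in NCI-H1975. Its change was 0.97 ± 0.39 (limma adjusted p = 0.187). Without the NCI-H1975 5 µM library, which leaves HCC827 alone at 5 µM, NDEL1 was at 1.71 and NDE1 at -0.76. Partner genes were named for the size of their fitted change at 5 µM, so their changes in that fit are no separate support.

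Dynactin, the cofactor that dynein 1 needs to move far, was tested in all 12 listed genes. With siDYN, 2 were lower and 2 higher at an unadjusted p under 0.05, where 13.4% of all genes were lower and 12.6% higher, with a median change of -0.05. No gene of any kind passed after adjustment in that fit. With siDYN-2 alone 3 of the 12 passed, CAPZA1, DCTN4 and ACTR1B, against 18.1% of all genes. CAPZA1, which caps the barbed end of the dynactin filament, stood at 75.53 FPKM and 65.06 FPKM with siDYN-1 and siDYN-2 in HCC827, against 102.05 FPKM with siCON. In NCI-H1975 it stood at 45.69 FPKM and 29.63 FPKM, against 82.33 FPKM with siCON. It was lower in all 4 libraries, with a fitted change of -0.84 ± 0.22 (limma adjusted p = 0.106).

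DCTN4, at the pointed end, was also lower, at 4.81 FPKM and 6.31 FPKM in HCC827 against 9.79 FPKM with siCON, and at 8.25 FPKM and 9.76 FPKM in NCI-H1975 against 16.18 FPKM with siCON (-0.76 ± 0.16, limma adjusted p = 0.0981). ACTR1B, an actin-related subunit of the filament, was higher, at 38.41 FPKM and 64.38 FPKM in HCC827 against 28.84 FPKM with siCON, and at 37.31 FPKM and 60.33 FPKM in NCI-H1975 against 30.93 FPKM with siCON (0.68 ± 0.27, limma adjusted p = 0.17). Dynactin transcripts thus moved in both directions with siDYN.

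At 5 µM 18E, 0 of the 12 dynactin genes were lower and 2 higher at an unadjusted p under 0.05, DCTN4 (0.58 ± 0.23, limma adjusted p = 0.185) and DCTN6 (0.40 ± 0.16, limma adjusted p = 0.182). Among all genes 16.8% were lower and 10.0% higher at that p. ACTR1B was at -0.40 ± 0.24, with 1 line up and 1 down. The median was -0.09, the same to 2 decimals as over all genes. DCTN4 therefore stood lower with siDYN and higher with 5 µM 18E, as DYNC1LI1 did, and the difference was not tested.

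Of 20 adaptors that bind the light intermediate chain or are thought to do so, 18 were tested in the siRNA experiment. With siDYN, 4 were lower and 2 higher at an unadjusted p under 0.05, against 13.4% and 12.6% of all genes, and the median was -0.04. With siDYN-2 alone 5 of the 18 passed after adjustment, against 18.1% of all genes. RILP, which links late endosomes and lysosomes to dynein, stood at 16.92 FPKM and 24.08 FPKM with siDYN-1 and siDYN-2 in HCC827, against 13.72 FPKM with siCON, and at 33.2 FPKM and 31.38 FPKM in NCI-H1975, against 17.35 FPKM with siCON. BICD2, an adaptor of Golgi vesicles and the nucleus, was at 5.73 FPKM and 6.26 FPKM in HCC827, against 3.63 FPKM with siCON, and at 6.52 FPKM and 7.28 FPKM in NCI-H1975, against 4.17 FPKM with siCON. Both were higher in all 4 libraries, by 0.69 ± 0.18 and 0.60 ± 0.14 (limma adjusted p = 0.106 and 0.101). TRAK2, a mitochondrial adaptor, was lower in all 4, by a fitted -0.54 ± 0.18 (limma adjusted p = 0.136).

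At 5 µM 18E, 5 of 17 tested adaptors were lower and 1 higher at an unadjusted p under 0.05, against 16.8% and 10.0% of all genes, and none passed after adjustment. In both lines 11 were lower, against 40.8% of all genes. Their median was -0.32 and that of all genes -0.09. RILP was higher again (0.75 ± 0.22, limma adjusted p = 0.125), at 5.22 FPKM, 6.91 FPKM and 11.0 FPKM over the doses in HCC827 and 11.68 FPKM, 19.28 FPKM and 17.52 FPKM in NCI-H1975. HOOK1 was lower, at 17.51 FPKM, 11.44 FPKM and 8.01 FPKM in HCC827 and 3.61 FPKM, 2.38 FPKM and 2.37 FPKM in NCI-H1975 (-0.75 ± 0.21, limma adjusted p = 0.12). SPAG9, a scaffold of the JNK pathway that binds the motor, was at 0.70 ± 0.28 (limma adjusted p = 0.19).

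Dynein 2, the related motor of cilia, was tested in 4 genes in the siRNA experiment and 5 in the 18E experiment. With siDYN none had an unadjusted p under 0.05, and the changes ran from -0.27 (DYNC2LI1, its light intermediate chain) to 0.16 (DYNLT2B). At 5 µM 18E all 5 had negative changes, and 1, the intermediate chain DYNC2I1, had an unadjusted p under 0.05 (-0.82 ± 0.21, limma adjusted p = 0.112). It stood at 9.36 FPKM in DMSO, 6.76 FPKM at 2.5 µM and 3.73 FPKM at 5 µM in HCC827, and at 6.77 FPKM, 6.39 FPKM and 4.47 FPKM in NCI-H1975. At that p 16.8% of all genes were lower. The median of the 5 was -0.32 and that of all genes -0.09, with 6983 of 11953 genes below 0. With siDYN, DYNC2LI1 was lower in all 4 libraries, as were 25.6% of all genes, but not at that p (limma unadjusted p = 0.135). DYNC1LI1, the lowest of all genes, is taken as the siDYN target, so the light intermediate chains of the motors are not a like comparison.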

How the data were processed

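Per the labels' protocols, RNA came from a Trizol extraction and was made into Illumina TruSeq libraries. Per the file headers, the authors deposited FPKM values, with 2 decimals and a table for each experiment. The submitters' processing notes list Bowtie 0.12.2 and the builds mm8 (of the mouse) and GRCh38.p12, with no role for any. Quantifier, annotation and strand handling: not given in the sources used here, so reads of overlapping antisense genes could not be told apart. The files hold no counts and depth is unknown, so no counting interval is given.

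The 18E table had 16760 complete genes of 16800 lines and that of the siRNA experiment 17442 of 17462, and lines left out were incomplete or annotation text. Values were transformed to log2(FPKM + 1), which understates changes of low genes. Genes at 1 FPKM or more in at least 2 of 6 libraries of a table were tested, 11953 for 18E and 11718 for siDYN, with limma 3.58.1 in R 4.3.3 (trend in the prior variance, two-sided, Benjamini-Hochberg over all genes tested, threshold 0.05). Cell line was a block. Libraries are paired by line because the labels name the line. The siDYN fit had 3 residual degrees of freedom and the others 2. Nothing in the labels says that a line was cultured more than once. The fits were tested on simulated data. Where a library was left out and a group kept 1 sample, that sample was assumed to vary like the others.

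All members are named. In each list of partners up to 3 genes with the largest fitted change were named. Members, lists and tests were chosen with earlier results of these data known, so no list was given a p of its own. The alternatives were another pseudocount (0.1), no filter on low values, quantile normalisation, equal FPKM totals, no trend, no line term, each siRNA alone, both doses together and leaving out each library. Promoters come from RefSeq (GRCh38.p14), and gene positions from GENCODE on GRCh38. Figures used matplotlib 3.10.9.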

Additional observations from a re-analysis of the deposited data

Results flagged for a closer look

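In the 18E experiment DYNLL2 and DYNLT1 moved in opposite directions in the lines at both doses. For DYNLL2 the single-library changes were 0.31 at 2.5 µM and 0.05 at 5 µM in HCC827, and -0.15 and -0.37 in NCI-H1975. The difference of the responses, HCC827 minus NCI-H1975, was 0.4354 (95% interval -0.45 to 1.32), and it did not pass when tested as an interaction (limma unadjusted p = 0.268, adjusted p = 0.999). For DYNLT1 the changes were -0.06 and -0.65 in HCC827, and 0.06 and 0.13 in NCI-H1975. That difference was -0.4452 (95% interval -1.48 to 0.59), and it did not pass either (limma unadjusted p = 0.326, adjusted p = 0.999).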

How the results depend on the processing

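Of 820 values of single members under other settings, 750 kept their direction and side of the adjusted threshold, 13 newly passed it and 57 changed sign, 44 of them with a library left out. No member passed in the fits that were put through these settings, so none could lose a call. The fits of each siRNA alone, where members did pass, were not varied further. The largest reported change among those that changed sign was 0.26 in size. Of 297 such values of the named partner genes, 278 kept direction and side, 17 newly passed and 2 changed sign. With siDYN-2 alone, DYNC1I2 (0.059), DYNLT3 (0.064) and PAFAH1B1 (0.14) changed sign, and DYNLT2B did with siDYN-1 alone (-0.28). With both doses together, the 2.5 µM changes of DYNLL1 (0.11), DYNLL2 (-0.038) and PAFAH1B1 (0.046) changed sign. Equal totals turned DYNLRB1 for the dose step (-0.022) and, for the difference between lines, DYNLRB1 with siDYN (0.030) and DYNC1LI2 with 18E (0.032). Quantile normalisation turned DYNLRB1 for the difference between lines with siDYN (0.026) and with 18E (0.013), and DYNC1H1 (-0.044) and DYNLRB1 (-0.020) between the siRNAs.

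With 1 library left out, the ranges that cross 0 were these. With siDYN they were -0.072 to 0.031 for DYNC1I2, -0.23 to 0.028 for DYNLT3, -0.23 to 0.065 for PAFAH1B1 and -0.074 to 0.41 for DYNLT2B. At 5 µM they were -0.12 to 0.0057 for DYNC1I2, -0.38 to 0.060 for DYNLL2, -0.62 to 0.10 for DYNLT1 and -0.10 to 0.44 for PAFAH1B1. At 2.5 µM they were -0.15 to 0.40 for DYNC1LI1, -0.11 to 0.061 for DYNLL1, -0.14 to 0.30 for DYNLL2, -0.22 to 0.0032 for DYNLRB1, -0.223 to 0.223 for DYNLT1 and -0.25 to 0.093 for PAFAH1B1. For the dose step they were -0.079 to 0.14 for DYNLRB1, -0.62 to 0.10 for DYNLT1, -0.064 to 0.16 for DYNLT3 and -0.026 to 0.52 for PAFAH1B1. For the siDYN difference between lines they were -0.11 to 0.13 for DYNC1I2, -0.14 to 0.087 for DYNLRB1 and -0.13 to 0.48 for DYNLT3. The 18E difference between lines ran from -0.42 to 0.32 for DYNC1H1, -0.43 to 0.46 for DYNC1LI1, -0.25 to 0.24 for DYNC1LI2, -0.12 to 0.29 for DYNLL1, -0.15 to 0.0039 for DYNLRB1, -0.023 to 0.15 for DYNLT3 and -0.067 to 0.47 for PAFAH1B1. Between the siRNAs they were -0.11 to 0.14 for DYNC1H1, -0.14 to 0.0027 for DYNC1LI2, -0.11 to 0.27 for DYNLL1 and -0.14 to 0.18 for DYNLRB1. The changes of DYNC1LI1, DYNC1LI2, DYNC1H1, DYNLL1, DYNLL2, DYNLRB1 and DYNLT1 with siDYN kept their direction in every alternative run, as did those of DYNC1LI1, DYNC1LI2 and DYNC1H1 at 5 µM. Some of these moved by over 1.5 times with a siCON library left out, from 0.071 to 0.53 for DYNLL1, 0.34 to 0.80 for DYNLL2 and 0.20 to 0.83 for DYNLT1.

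Counts of called genes depended on the setting, and the cause was not tested. For siDYN the count of 0 became 82 with siDYN-1 alone and 2124 with siDYN-2 alone, and ran from 0 to 128 with 1 library left out (128 without HCC827 siDYN-1). At 5 µM the count of 1 became 16 with a pseudocount of 0.1, and 0 with no filter, equal totals, no trend, no replicate block for the line, or both doses together. It ran from 34 to 4520 with a library left out, 4520 without NCI-H1975 5 µM. The 2.5 µM count ran from 0 to 26 and that of the dose step from 0 to 3478, the highest again without NCI-H1975 5 µM. The siDYN difference between lines gave 1 gene with a pseudocount of 0.1, and leaving out a library gave 0 to 0 genes for both differences between lines. The 71 genes that separated the siRNAs became 0 with no filter, 33 with equal totals, 1 with no trend and 0 with no replicate block, and 1 to 386 with a library left out (1 without HCC827 siDYN-1, 386 without NCI-H1975 siCON). Without the block, DYNC1LI1 had a limma adjusted p of 0.684 with siDYN.

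Equal totals moved the share of higher genes among those under an unadjusted p of 0.05 to 28.5% from 48.4% with siDYN, to 22.3% from 37.3% at 5 µM, to 44.1% from 61.8% at 2.5 µM and to 17.7% from 31.5% for the dose step. Quantile normalisation gave 53.1% for the dose step, and 48.6% in place of 62.3% between the siRNAs. Unknown depth limits what low values such as DYNC1LI1 in HCC827 siDYN-2 can show.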
